A study of Mus musculus with 4 samples.

Results

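The genes examined here encode the main heat shock chaperones of the cytosol and of mitochondria: Hspa1a, Hspa1b, Hspa8, Hsph1, Hspb1, Hsp90aa1, Hsp90ab1, Dnajb1, Hspd1 and Hspe1. They were taken by symbol from the deposited values, and all 10 were found among the 17013 genes listed. Bulk RNA sequencing had been carried out on bone marrow-derived macrophages of wild-type (WT) male C57BL/6 mice, matured with M-CSF and kept for 24 h on porous culture inserts. Every culture received artificial necrotic bone fluid (aNBF), a freeze-thaw extract of bone and marrow, in the insert with the cells. The fat control medium (Con) held the middle layer of freeze-thawed mouse abdominal fat below the insert, and the high-fat-containing medium (Fat) held its top fat layer, with 2 libraries of each. The fat itself came from mice, so RNA left in it would be counted with that of the macrophages. Values are given below for replicate 1 and then replicate 2 of a medium. Nothing in the labels says that the libraries of a medium came from separate animals or cultures, so p-values measure only the spread between these samples, which may be technical.

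Chaperones bind unfolded proteins and help them to fold. In the cytosol, HSP70 proteins work in cycles of ATP hydrolysis that J-domain proteins start and exchange factors reset, and HSP90 proteins then mature signalling proteins and receptors. In mitochondria, HSP60 and its lid HSP10 form a folding chamber. Heat, oxidants and other damage to proteins raise the inducible members through the heat shock factor HSF1, while other members are kept high in all cells, and in macrophages HSP90 also keeps signalling kinases in a folded state.

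Library totals, recovered from the steps of the values, lay between 33573852 and 40785872 reads. At these totals 1 read is worth 0.0244 to 0.0295 CPM (reads relative to the scaled library total). All 7 macrophage markers listed passed the filter on low values, with a sum of 32779 to 34746 CPM in Con and 25918 to 27440 CPM in Fat. Lyz2 made up most of this sum (28721 and 26819 CPM in the Con libraries, 21516 and 20347 CPM in the Fat libraries). Both Fat libraries also lay below both Con libraries for Csf1r (1852 and 1638, then 1539 and 1477 CPM) and Mertk (232.0 and 215.1, then 187.3 and 172.1 CPM). The same held for Cd14 (288.1 and 259.9, then 249.2 and 242.5 CPM) and Fcgr1 (278.1 and 242.0, then 165.6 and 120.7 CPM). Itgam (2598 and 2735, then 2890 and 2695 CPM) and Cd68 (777.7 and 870.1, then 892.4 and 864.0 CPM) had no lower mean in Fat. Of 9 adipocyte markers, 2 passed the filter on low values, and 4 (Adipoq, Lep, Cidea and Pck1) had 0 reads in both Con libraries. All 9 together summed to 0.177 to 0.187 CPM in Con and 6.17 to 11.8 CPM in Fat. Fibroblast and stromal markers summed to 523.2 to 548.2 CPM in Con and 438.0 to 574.8 CPM in Fat. Granulocyte markers summed to 289.7 to 332.6 CPM in Con and 287.3 to 291.3 CPM in Fat. Sums of endothelial (40.1 to 40.6, then 33.3 to 36.3 CPM) and lymphocyte markers (19.1 to 20.8, then 15.9 to 17.2 CPM) were lower in Fat. Fewer cells of a type and less RNA per cell cannot be told apart in bulk samples. The filter kept 12470 genes that reached 0.5 CPM in 2 or more libraries, among them all 10 chaperone genes. Fat was set against Con by limma, fitted to log2(CPM + 0.1) of all these genes. A gene was called at a Benjamini-Hochberg adjusted p-value under 0.05, and fold changes are on that log2 scale. With 2 libraries a medium, the smallest p-value of an exact permutation test is 0.333, and no such test was used.

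Hsph1 and Hsp90aa1 rose in Fat, by 1.32-fold and 1.23-fold. The other 8 chaperone genes were not called. Thus 2 of 10 were called higher, where 3.99% of all tested genes were, and 0 of 10 lower, where 5.0% were (9.0% in either direction). By limma at an unadjusted p-value under 0.05, 3 were higher (11.8% of all genes) and 0 lower (12.4%), and 0 were called lower by edgeR's quasi-likelihood and exact tests or by DESeq2, which gave no adjusted p-value for Hspa1a. Both Fat libraries lay above both Con libraries for 6 genes, which 29.4% of all tested genes did, and below them for 1 gene, which 26.2% did, so that the media did not overlap for 7 of 10 genes against 55.6% of all genes. The median log2 fold change of the 10 genes was 0.077, and that of all tested genes was 0.012.

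The levels of the 10 genes spanned more than 3 orders of magnitude per unit of length. On the TPM scale, which is corrected for gene length, Hsp90ab1 was the most abundant with 1160 to 1252 TPM over the 4 libraries, followed by Hspa8 with 496.5 to 522.9 TPM and Hspd1 with 107.1 to 124.0 TPM. Hspe1 lay at 77.5 to 85.3 TPM, Hsph1 at 66.3 to 92.3 TPM and Hsp90aa1 at 59.0 to 76.1 TPM. Over both media the ranges of Hspe1 and Hsph1 overlapped, as did those of Hsph1 and Hsp90aa1. Within a medium they did not: Hspe1 lay above Hsph1 in both Con libraries and below it in both Fat libraries, and Hsph1 lay above Hsp90aa1 in all 4 libraries. Dnajb1 followed with 34.9 to 37.2 TPM and Hspb1 with 3.83 to 4.01 TPM. The stress-inducible HSP70 genes were lowest, with 0.803 to 1.56 TPM for Hspa1b and 0.300 to 0.521 TPM for Hspa1a. Hsp90ab1 alone held between 57.1% and 57.5% of the summed TPM of the 10 genes in every library. The 10 genes differ in how much sequence they share with other genes, as given below. How reads that match several genes were counted is not known, so this order and share may depend on it.

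**Figure D1:**
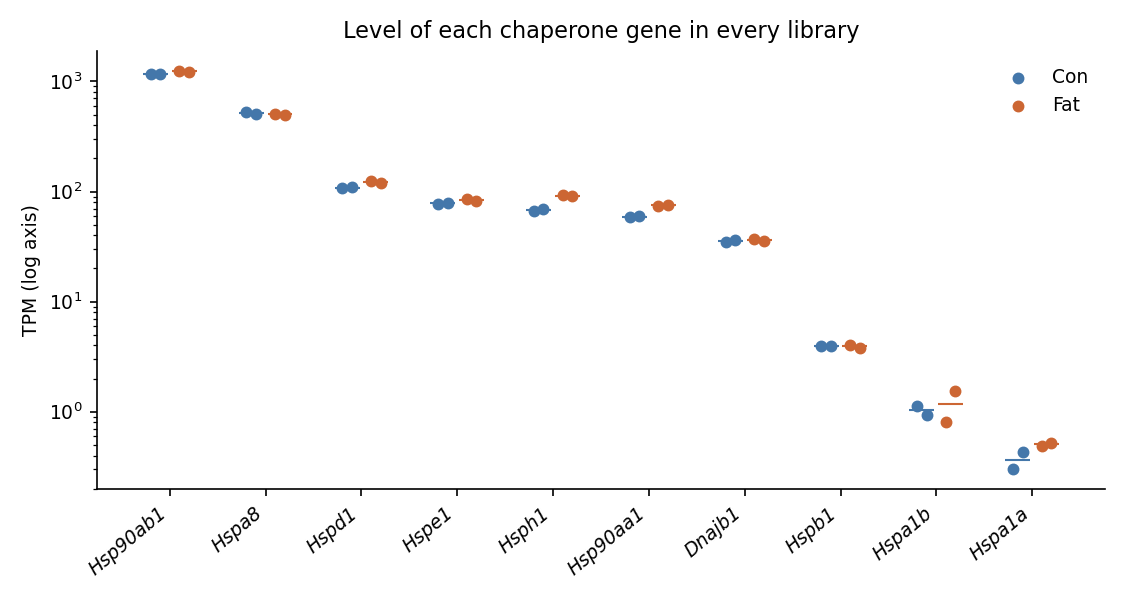
TPM (log axis) of the 10 chaperone genes in each library, ordered by mean level. Each point is a library, 2 from Con and 2 from Fat, and each line is the mean of a medium. The range runs from Hsp90ab1, at 1160 to 1252 TPM, down to Hspa1a, at 0.300 to 0.521 TPM, and the media separate most clearly for Hsph1 and Hsp90aa1.

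Hspa1a and Hspa1b are neighbouring genes without introns that encode the stress-inducible HSP70, the form that appears after heat or damage. Their coding sequences, read as the longest open reading frame of the GENCODE vM21 transcripts (GRCm38), matched at 1918 of 1926 aligned bases (99.6%), with a run of 638 identical bases. A further 3 coding bases were found only in Hspa1b. A stretch of 60 coding bases is shown as an example of how few coding bases tell the genes apart. It is the first with the most differing bases in the longest part aligned without a gap. It covers coding bases 1357 to 1416 in each gene, counted from the first base of the start codon, and the 2 bases that differ are in capitals.
Hspa1a: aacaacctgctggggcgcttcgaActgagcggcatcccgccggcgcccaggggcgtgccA
Hspa1b: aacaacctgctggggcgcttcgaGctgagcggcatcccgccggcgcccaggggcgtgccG
Of the stretches of 75 bases taken every 5 bases along the Hspa1b transcript, 74.7% were found in Hspa1a with at most 2 mismatches, and of those along Hspa1a 70.5% were found in Hspa1b, so the remaining stretches do tell the genes apart at that tolerance. How reads that match more than a single gene were counted is not given in the sources used here, so the reads may have been split between the genes or left out, and the levels of both genes are uncertain. Hspa1a also overlaps Gm20481 on the opposite strand.

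Hspa1a had 13 and 21 reads in the Con libraries (0.383 and 0.560 CPM) and 23 and 27 reads in the Fat libraries (0.616 and 0.659 CPM). Both Fat libraries lay above both Con libraries, and the lowest was Con replicate 1. The log2 fold change was 0.38 (95% interval -0.33 to 1.10, limma adjusted p = 0.499), so no change was detected in either direction. The interval runs from 0.79 to 2.14 times the Con level. Without Con replicate 1 the log2 fold change was 0.16, without Con replicate 2 it was 0.61, and with a pseudocount of 1 it was 0.16. Hspa1b had 49 and 46 reads in the Con libraries (1.44 and 1.23 CPM) and 38 and 81 reads in the Fat libraries (1.02 and 1.98 CPM). Fat replicate 2 was the highest library and Fat replicate 1 the lowest, so the groups overlapped. The log2 fold change of Hspa1b was 0.090 (95% interval -0.63 to 0.81, limma adjusted p = 0.899), and without Fat replicate 2 it was -0.36. Summed to a single feature, the genes had 1.83 and 1.79 CPM in Con and 1.63 and 2.63 CPM in Fat. This sum had a log2 fold change of 0.19 (95% interval -0.37 to 0.76, limma adjusted p = 0.682).

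Hspa8 encodes HSC70, the HSP70 that cells keep high without stress and that also strips clathrin from vesicles and feeds proteins to lysosomes. It had 502.8 and 499.5 CPM in the Con libraries, against 482.4 and 471.8 CPM in the Fat libraries. It was the only chaperone gene of the 10 with both Fat libraries below both Con libraries. The log2 fold change of -0.071 was not called (95% interval -0.20 to 0.059, limma adjusted p = 0.491). The lower end of the interval is 0.870 times the Con level. Other genes, foremost Gm15459, held copies within 2 mismatches of 81.5% of its stretches, so its reads may be shared too. On the TPM scale Hspa8 was 367.0 and 373.1 times the summed level of Hspa1a and Hspa1b in the Con libraries, and 393.6 and 238.9 times in the Fat libraries. The lower ratio in Fat replicate 2 went with its higher Hspa1b.

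Hsph1 encodes HSP110, which resets HSP70 by exchanging its nucleotide and helps it to dissolve aggregates. It had 105.3 and 113.3 CPM in the Con libraries, against 144.8 and 143.9 CPM in the Fat libraries. The Fat libraries lay above both Con libraries and within 1% of each other. The rise from 109.3 ± 5.65 to 144.3 ± 0.648 CPM (SD, n = 2 each) was 0.40 on the log2 scale (standard error 0.058, 95% interval 0.27 to 0.54, limma adjusted p = 0.0085). Without limma's mean-variance trend the adjusted p-value was 0.0953. Of its 746 stretches, 0 were identical to a stretch of another gene and 1 was within 2 mismatches of 1. Per unit of length, Hspa8 was 7.89 and 7.29 times as abundant as Hsph1 in the Con libraries and 5.51 and 5.42 times in the Fat libraries. The summed adipocyte markers were also higher in Fat. Of the macrophage markers, Lyz2, Csf1r, Mertk, Cd14 and Fcgr1 were lower, and Itgam and Cd68 had no lower mean. The part of these marker changes in the rise of Hsph1 and of Hsp90aa1 was not tested.

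Dnajb1 encodes HSP40, the J-domain protein that hands unfolded clients to HSP70 and is, as a rule, induced together with it. It had 36.1 and 38.2 CPM in the Con libraries, against 38.0 and 36.2 CPM in the Fat libraries, so the 2 groups overlapped throughout. The log2 fold change was -0.0035 (95% interval -0.16 to 0.15, limma adjusted p = 0.984), and it was 0.028 with the TPM values. None of the 585 stretches of its transcript was found in another gene.

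Hsp90aa1 and Hsp90ab1 encode the inducible and the constitutive cytosolic HSP90. Hsp90aa1 had 76.8 and 79.0 CPM in the Con libraries, against 94.2 and 97.9 CPM in the Fat libraries, with no overlap. Its rise from 77.9 ± 1.57 to 96.0 ± 2.64 CPM (SD, n = 2 each) was 0.30 on the log2 scale (standard error 0.055, 95% interval 0.17 to 0.43, limma adjusted p = 0.0186). Without Con replicate 1 the adjusted p-value was 0.057, without Fat replicate 2 it was 0.0981, and without the mean-variance trend it was 0.117, with the direction kept. Other genes held an identical copy of 53.0% of its stretches and a copy within 2 mismatches of 67.8%, foremost Gm12346. Of the stretches of Hsp90ab1, 9.8% had a copy within 2 mismatches. Reads that match several genes may thus weigh differently on the levels of Hsp90aa1 and Hsp90ab1. Hsp90ab1 had 1329 and 1373 CPM in the Con libraries, against 1416 and 1389 CPM in the Fat libraries. Its Fat libraries also lay above its Con libraries, but by a log2 fold change of 0.054 that was not called (95% interval -0.11 to 0.22, limma adjusted p = 0.684). On the TPM scale Hsp90ab1 exceeded Hsp90aa1 19.7 and 19.8 times in the Con libraries and 17.1 and 16.1 times in the Fat libraries, so the ratio was lower in both Fat libraries.

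Hspb1 encodes HSP25, a small heat shock protein that holds unfolded proteins without ATP and binds actin. It had 1.62 and 1.65 CPM in the Con libraries, against 1.63 and 1.56 CPM in the Fat libraries, from 55 to 64 reads a library, and the groups overlapped. The log2 fold change was -0.033 (95% interval -0.47 to 0.40, limma adjusted p = 0.942). Of its stretches, 54.1% were found within 2 mismatches in the pseudogene Hsp25-ps1.

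Hspd1 and Hspe1 encode the mitochondrial chaperonin HSP60 and its lid HSP10. Hspd1 had 114.1 and 119.0 CPM in the Con libraries, against 130.5 and 127.0 CPM in the Fat libraries, and Hspe1 had 27.2 and 28.3 CPM in the Con libraries, against 29.6 and 28.5 CPM in the Fat libraries. Both Fat libraries lay above both Con libraries for each gene. Hspd1 had a log2 fold change of 0.14 (95% interval 0.017 to 0.27), with an unadjusted limma p-value of 0.0313 and an adjusted one of 0.158, and was not called. Hspe1 had a log2 fold change of 0.064 (95% interval -0.092 to 0.22, limma adjusted p = 0.61). The TPM ratio of Hspd1 to Hspe1 was 1.38 in both Con libraries and 1.45 and 1.47 in the Fat libraries. Copies within 2 mismatches covered 69.4% of the stretches of Hspd1 and 70.0% of those of Hspe1. In GENCODE vM21 these genes overlap on opposite strands, and no setting for strand in the counting is given in the sources used here, so reads over the overlap may belong to either gene.

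**Figure D2:**
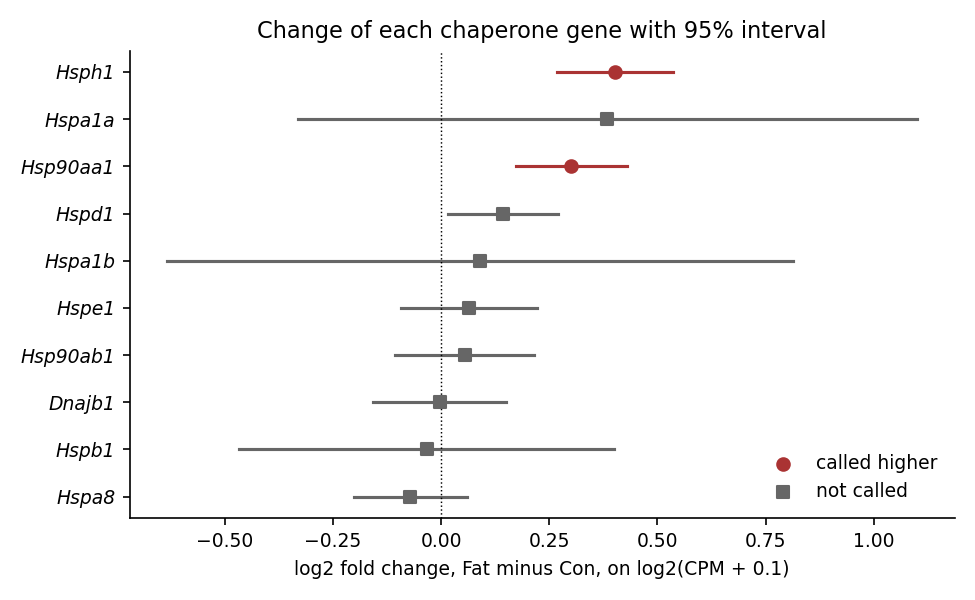
Log2 fold change of Fat against Con for the 10 chaperone genes (points) with limma's 95% interval (lines). Circles mark Hsph1 (0.40) and Hsp90aa1 (0.30), the genes called higher, and squares the 8 genes not called. The intervals of Hspa1a, Hspa1b and Hspb1, the genes with the fewest reads, are the widest.

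**Figure D3:**
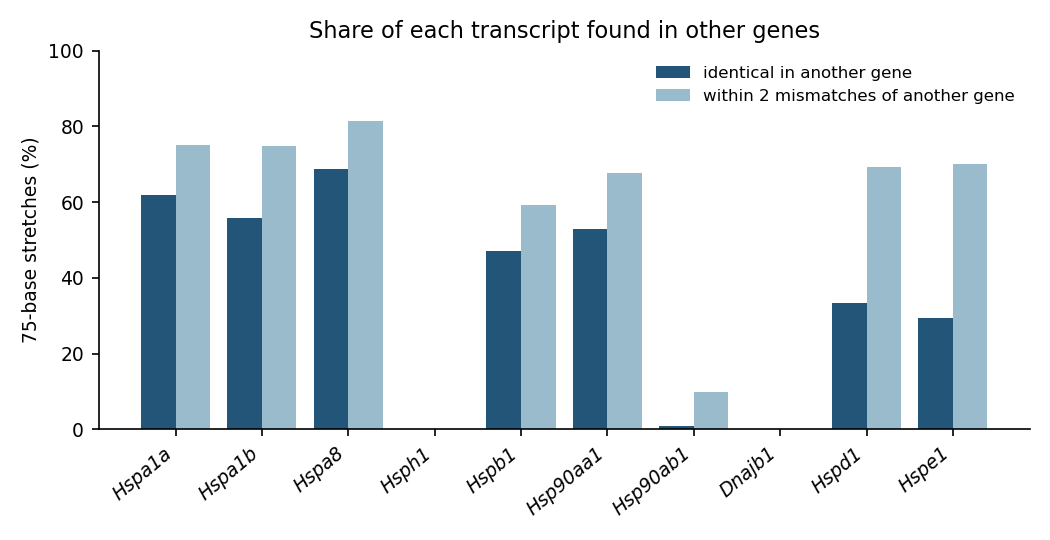
Percent of the 75-base stretches of each transcript that are identical to (dark bars) or within 2 mismatches of (light bars) a stretch of another gene in GENCODE vM21. Hsph1 and Dnajb1 share almost none, while Hspa8 shares 81.5% within 2 mismatches.

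RefSeq promoter windows on GRCm38.p6, from 250 bases before to 50 bases after a start, were held for 7 of the 10 genes in 10 windows, and Hspa8, Hsp90aa1 and Hsp90ab1 are not among them. They were searched for the heat shock element, the site of HSF1, written as 2 inverted units (GAANNTTC or TTCNNGAA) or as 3, in which either pattern is followed, after any 2 bases, by its first unit again. Each 2-unit pattern reads the same on both strands and the 3-unit patterns are each other's reverse complement, so both strands were covered, and every 3-unit match holds overlapping 2-unit matches. At least 2 units were found for 6 of the 7 genes, all but Dnajb1, and 15.1% of all 32851 promoter windows, or 17.0% of 27025 genes, hold such a match. A match of 3 units was found for 3 genes (Hspd1, Hspe1 and Hsph1), and 0.603% of all windows, or 0.662% of genes, hold such a match. The upstream stretches that hold matches are printed on the strand of each gene, with the matches in capitals.
Hspd1, chr1:55088044-55088091, minus strand: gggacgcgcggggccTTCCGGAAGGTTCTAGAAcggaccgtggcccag
Hspe1, chr1:55088044-55088091, plus strand: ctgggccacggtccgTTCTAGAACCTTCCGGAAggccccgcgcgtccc
Hspa1a, chr17:34972238-34972275, minus strand: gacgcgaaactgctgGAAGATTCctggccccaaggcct
Hspa1b, chr17:34959320-34959357, minus strand: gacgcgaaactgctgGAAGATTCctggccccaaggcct
Hspb1, chr5:135887787-135887844, plus strand: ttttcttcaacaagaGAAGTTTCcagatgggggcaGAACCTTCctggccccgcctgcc
Hsph1, chr5:149636347-149636384, minus strand: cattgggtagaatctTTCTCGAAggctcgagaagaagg
The stretches of Hspd1 and Hspe1 are the same 48 bases read from opposite strands, 144 bases before a start of Hspd1 and 89 bases before that of Hspe1. The stretches of Hspa1a and Hspa1b are identical, and 247 of the 250 upstream bases of these genes match. In Hsph1 the 3-unit match lies after the start, at 36 or 15 bases depending on the start, and its 2-unit match before it. Hsph1, which rose, holds 1 match of 3 units in each window. Hspe1 and a window of Hspd1, genes that were not called, hold 2 such matches that overlap. A match is a description of letters and not a site shown to be bound.

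**Figure D4:**
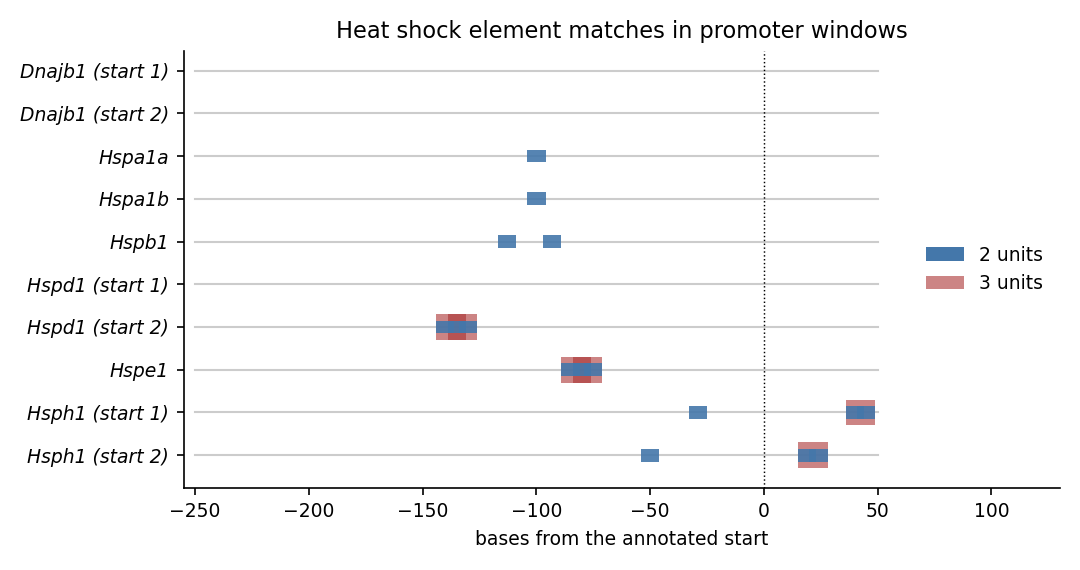
Positions of heat shock element matches in the 10 promoter windows of 7 genes, in bases from the annotated start (dotted line). Blue marks 2 units and red 3 units. Upstream of Hspe1 and of a start of Hspd1 lie 2 overlapping matches of 3 units. Hsph1 carries 1 downstream of each start, and Dnajb1 has no match.

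The wider chaperone network was described from lists by function, chosen with earlier results of these data known. Together they held 110 genes, of which 100 were tested, and 3 of these rose and 2 fell in Fat, where 3.99% and 5.0% of all tested genes did. Without limma's mean-variance trend 0 rose and 0 fell. Among 27 tested genes of the HSP70 system outside the members, 2 rose and 0 fell by limma. At an unadjusted limma p-value under 0.05, 6 were higher and 2 lower, where 11.8% and 12.4% of all tested genes were. Adjusted p-values of edgeR's quasi-likelihood test and DESeq2 also gave 0 lower (DESeq2 without a value for Hspa12a), while edgeR's exact test gave 2, Dnajb5 and Hspa4l. Bag3, a nucleotide exchange factor that directs HSP70 clients to autophagy, had 59.1 and 68.2 CPM in the Con libraries, against 93.0 and 94.1 CPM in the Fat libraries. Its rise of 0.56 on the log2 scale (standard error 0.075, limma adjusted p = 0.00726) was the largest of the wider lists. Dnajb4, a J-domain partner of HSP70, had 43.9 and 49.0 CPM in the Con libraries, against 61.3 and 62.3 CPM in the Fat libraries, a rise of 0.41 on the log2 scale (SE 0.069, limma adjusted p = 0.0144). Bag3, Dnajb4 and Hsph1, which act on HSP70, are named here because they were called. Of the 27 tested genes of the HSP70 system, 18 had a log2 fold change above 0 and 9 below it. Over all 12470 tested genes these counts were 6680 and 5790. The lowest of the 27 was Dnajb5, at -0.38. Hspa8, Hspa1a and Hspa1b, which encode HSP70 proteins, were not called.

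For the HSP90 co-chaperones, the small heat shock proteins and TRiC with prefoldin, edgeR's 2 tests and DESeq2 called 0 genes, as limma did, with no adjusted p-value from DESeq2 for Hspb7. By limma's adjusted p-value, 3.99% of all tested genes were called higher and 5.0% lower. At an unadjusted limma p-value under 0.05, 11.8% of all tested genes were higher and 12.4% lower. Of the 17 co-chaperones of HSP90, 0 were called in either direction by limma (2 higher and 1 lower at that unadjusted p-value). The smallest p-values belonged to Ppid, a prolyl isomerase bound to HSP90 (log2 fold change 0.20, limma adjusted p = 0.115), and Cdc37l1 (0.21, adjusted p = 0.125). None of the 4 tested small heat shock proteins was called (0 and 0 at an unadjusted p-value under 0.05), with log2 fold changes of -0.19 for Hspb8 and 0.17 for Hspb6. None of the 13 tested genes of the TRiC chaperonin and prefoldin, which fold actin and tubulin, was called (0 and 0 unadjusted). Their log2 fold changes ran from -0.12 for Vbp1 to 0.097 for Cct6a, a narrow range.

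In mitochondria, 1 of 14 tested chaperones and proteases rose and 1 fell, where 3.99% and 5.0% of all tested genes did. Afg3l2, a subunit of the inner membrane m-AAA protease, rose from 76.7 and 81.2 CPM in Con to 104.2 and 108.1 CPM in Fat (0.43 on the log2 scale, SE 0.057, limma adjusted p = 0.00726). Dnajc15, a J-domain protein of the inner membrane import machinery, had 37.7 and 40.9 CPM in the Con libraries, against 30.6 and 30.9 CPM in the Fat libraries. On the log2 scale it fell by 0.35 (standard error 0.068, limma adjusted p = 0.022). This call was lost without the mean-variance trend (limma adjusted p = 0.1124). It was also lost without Con replicate 2, Fat replicate 1 or Fat replicate 2, with log2 fold changes of -0.29, -0.34 and -0.36. It was kept without Con replicate 1 (-0.41). Hspa9, the mitochondrial HSP70, named after its values were seen, had a log2 fold change of 0.15 and was not called (limma adjusted p = 0.135).

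None of the 5 tested heat shock factors and regulators was called by limma, edgeR's 2 tests or DESeq2 (1 higher by limma and 0 lower at an unadjusted p-value under 0.05). Hsf1, the factor that drives the heat shock response and is switched on mainly at the protein level, had 23.1 and 24.1 CPM in the Con libraries, against 25.0 and 22.6 CPM in the Fat libraries. Its log2 fold change was 0.01 (95% interval -0.17 to 0.19, limma adjusted p = 0.958). Hsf2 had a log2 fold change of 0.20 (limma adjusted p = 0.166) and Hsf4 one of 0.24 (adjusted p = 0.515). Of 16 tested textbook targets of HSF1 outside the members, 2 rose and 0 fell by limma (2 and 2 at an unadjusted p-value under 0.05), and those that rose were again Bag3 and Dnajb4. Of all tested genes 3.99% rose and 5.0% fell, and 11.8% and 12.4% did so at the unadjusted p-value. With edgeR's quasi-likelihood test and DESeq2 0 fell, and with edgeR's exact test 1, Hspa4l. The median log2 fold change of these targets was 0.013, close to the 0.012 of all tested genes.

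The chaperones of the endoplasmic reticulum (ER), which fold secreted and membrane proteins, were the only wider list with a median log2 fold change below 0. Of 17 tested, 0 rose and 1 fell by limma at an adjusted p-value under 0.05, where 3.99% and 5.0% of all tested genes did. By edgeR's 2 tests and by DESeq2 the counts were 0 and 2, Sdf2l1 being the other. At an unadjusted limma p-value under 0.05 they were 0 and 9, where 11.8% of all tested genes were higher and 12.4% lower. Both Fat libraries lay below both Con libraries for 13 of the 17, which 26.2% of all tested genes did. Dnajc10, a disulfide reductase of the ER, had 150.5 and 136.3 CPM in the Con libraries, against 118.0 and 115.3 CPM in the Fat libraries (-0.30 on the log2 scale, SE 0.063, limma adjusted p = 0.0303). The call was lost with the TPM values (limma adjusted p = 0.0871) and without the mean-variance trend (0.1545). It was also lost without Con replicate 1, Fat replicate 1 or Fat replicate 2, with log2 fold changes of -0.22, -0.31 and -0.28. It was kept without Con replicate 2 (-0.37). The median log2 fold change of the ER chaperones was -0.16 with CPM, -0.13 with TPM and -0.17 with CPM rescaled by median ratios. For the ER counterparts of HSP70 and HSP90, named after their values were seen, Hspa5 had 959.0 and 1008 CPM in the Con libraries, against 896.5 and 832.9 CPM in the Fat libraries (log2 fold change -0.19, limma adjusted p = 0.156). Hsp90b1 had 1126 and 1120 CPM in the Con libraries, against 1048 and 963.3 CPM in the Fat libraries (log2 fold change -0.16, limma adjusted p = 0.221). Neither was called, and whether they differ in response from their cytosolic relatives was not tested.

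**Figure D5:**
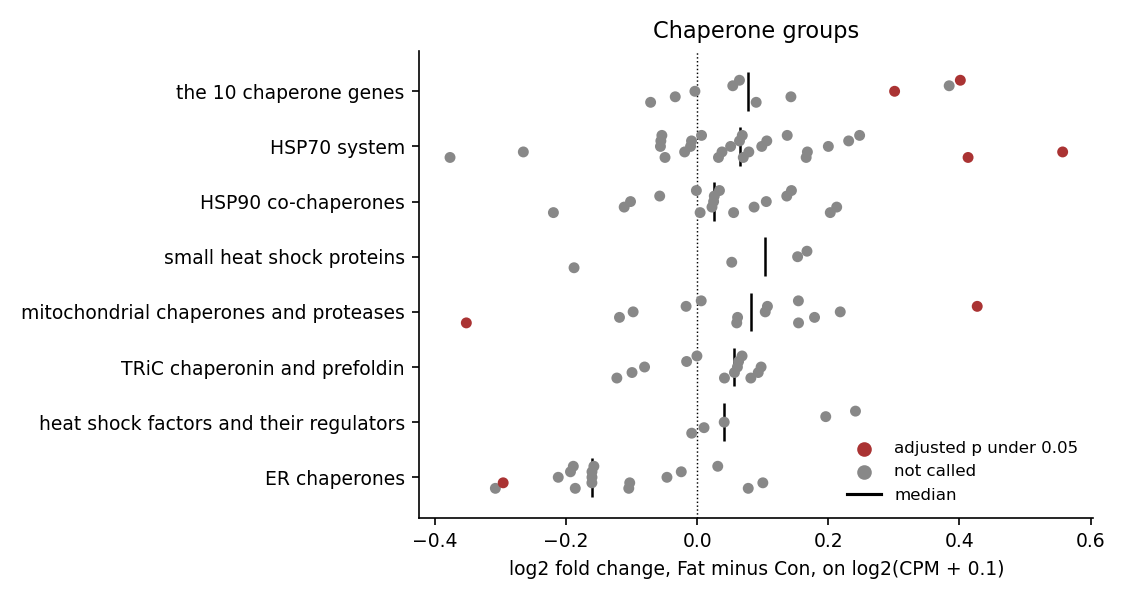
Log2 fold change of Fat against Con for each tested gene (points) of the 10 chaperone genes and 7 wider lists, with the median of each list (line). Red points have an adjusted p-value under 0.05. The ER chaperones have a median of -0.16 and the other lists have medians above 0.

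The genes with a pattern most like that of the 2 called chaperones were found by the root mean square distance of centred log2 values over the 4 libraries, among 9753 candidates averaging 5 CPM or more. Nearest to Hsph1 were Pkm (distance 0.0056) and Acaa2 (0.0079), and nearest to Hsp90aa1 were Peak1 (0.0086) and Syne3 (0.0095). With 4 libraries and 9753 candidates, close matches arise easily. No background distance was taken, and shared regulation was not tested.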

How the data were processed

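The authors prepared single-read libraries with a stranded mRNA kit and deposited the values as CPM and TPM for each of 4 libraries. The processing notes name GRCm39, and the paper names edgeR for the comparison. The deposited values are labelled igenomes genes, with no version of the annotation. The aligner and counter are not given in the sources used here. The deposited CPM values were whole multiples of the value of 1 read in every library (100% of values, within 1e-06 of a read), so reads were recovered. They carry a scaling factor per library that matched edgeR's TMM factor. The deposited TPM values served for levels between genes and for 1 alternative.

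Groups came from the sample titles. limma 3.58.1 (R 4.3.3) was fitted across all 12470 genes with a mean-variance trend on log2(CPM + 0.1), two-sided. Because the unit is CPM, edgeR 4.0.16 and DESeq2 1.42.0 on recovered reads were alternatives, beside those in the closing section. On simulated counts with 200 genes changed by 1 on the log2 scale among 12392, limma found 90.0% (24 false calls), quasi-likelihood edgeR 89.5% (27), exact edgeR 92.5% (32) and DESeq2 85.5% (12). Smaller changes, such as the 0.40 of Hsph1 and the 0.30 of Hsp90aa1, were not simulated, so these shares do not apply to them. On the recovered reads, quasi-likelihood edgeR called 490 genes higher and 648 lower, exact edgeR 713 and 929, and DESeq2 460 and 600.

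Sequences shared between transcripts were found with BWA 0.7.19 in GENCODE vM21 (GRCm38), as stretches of 75 bases at steps of 5, and promoters came from RefSeq. Named genes were the 10 members and, for each list, the called genes (at most 4 a direction), Hsf1 and Hsf2, or, with none called, the 2 smallest p-values, and the 2 genes nearest each called member. Members and lists were chosen with earlier results of these data known. Python 3.11.15 made the tables and figures.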

Additional observations from a re-analysis of the deposited data

How the results depend on the processing

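For each chaperone gene and named gene, fold changes were recomputed under up to 14 alternatives: pseudocount 1, every listed gene, genes averaging 5 CPM or more, TPM, median-ratio rescaling, no mean-variance trend, edgeR's quasi-likelihood and exact tests, DESeq2, the replicate number as a block, and each library left out. For 8 chaperone genes a fit with Hspa1a and Hspa1b summed was added to these, genes under 5 CPM had no value in that setting, and Hspa1a had no adjusted p-value from DESeq2. Of all these values, 311 kept direction and stayed called or not called as in the main fit. A call was lost in 16 and gained in 1, and 9 changed sign. The sign changes were those of genes not called: Dnajb1 (0.028 with TPM, and -0.044 to 0.037 with a library left out), Hspa1b (-0.36 to 0.54), Hspb6 (-0.036 to 0.37), Hsf4 (-0.00011 to 0.48) and Hsf1 (-0.062 to 0.082). Leaving out libraries gave 1 to 2 chaperone genes called higher, 0 to 2 wider genes called lower, 216 to 519 genes called higher and 313 to 612 called lower overall. Without the mean-variance trend the counts were 0 chaperone genes higher, 0 wider genes higher, 0 wider genes lower, 19 genes higher and 12 lower. With TPM the median of the chaperone genes was 0.11, with 1 wider gene and 366 genes in all called lower, and edgeR's exact test called 5 wider genes lower. The cause was not tested. Same-numbered libraries share only a number in the labels; their deviations correlated at 0.20 over the 12470 tested genes and at 0.34 over the 9760 averaging 5 CPM or more. The replicate block gave 1278 higher and 1242 lower calls, 9 and 9 of them among the wider genes, while the chaperone genes stayed at 2 and 0. Hspa1a, Hspa1b and Hspb1 rest on 13 to 81 reads a library.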
